A study of Mus musculus with 32 samples.

Results

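The genes followed here are 9 of the 30139 gene names on the array and belong to the interferon system: the cytosolic RNA helicases Ddx58 (which encodes RIG-I), Ifih1 (MDA5) and Dhx58 (LGP2), the Z-form nucleic acid sensor Zbp1, and the transcription factors Irf3, Irf7, Irf1, Stat2 and Irf9. Members were the non-control probes that carry one of these gene names, which gave 13 of 39429 probes. All 9 genes had a probe that was bright enough, meaning well above background on 4 or more arrays of 1 group, and were tested among 15159 genes. Of the 13 probes 10 passed that filter, and the second probes of Ddx58, Ifih1 and Irf1 did not. The probes used for 8 of the genes passed through 5 or 6 groups. That of Dhx58 passed through WT mice at 8 Gy alone, the group in which it is highest, so its difference there is not independent of the filter.

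Blood RNA of 32 male mice, labelled as strain C57BL/6, was hybridised to Agilent 1-colour arrays, 1 mouse per array, 24 h after X-rays or a mock exposure. Wild type mice (WT) received 0 Gy (n = 6) or 8 Gy (n = 5), mice labelled ATM-/- (Atm), which lack a kinase that signals DNA breaks, 0 Gy (n = 5) or 4 Gy (n = 6), and mice labelled Scid, a mutation of Prkdc that impairs DNA end joining and the formation of B and T cells, 0 Gy (n = 5) or 3 Gy (n = 5). Each genotype received its own dose, chosen in the design text to be lethal to the same share of animals, so genotype and dose cannot be told apart, and ages are not given in the sources used here. All samples, controls included, were depleted of globin transcripts. The 2 probes of Atm and the 1 probe of Prkdc did not pass the filter and give no check of the genotypes.

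Cells recognise viral and misplaced RNA through RIG-I and MDA5, which signal through an adaptor on mitochondria to the factor IRF3, and LGP2 tunes that signal. IRF3, and IRF7 where it is present, switch on type I interferon genes. Interferon outside the cell then activates STAT2, which works in a complex with IRF9 that binds the interferon-stimulated response element and raises a large set of genes, among them the sensors themselves, Irf7 and Zbp1. ZBP1 senses Z-form RNA and DNA and can start cell death through RIPK3 and MLKL. IRF1 is induced mainly by interferon gamma, whose signal reaches genes through the gamma-activated sequence.

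Promoter windows of 250 bases before to 50 after the RefSeq start sites (build GRCm38.p6) were found for 7 of the 9 genes, in 9 windows; Zbp1 and Dhx58 had no entry. The core of the interferon-stimulated response element, written here as GAAA, any 2 bases and GAAA again, was searched on both strands and stood in the windows of Ifih1, Ddx58 and Stat2, against 3.44% of all 32851 windows. The letters TTCNNNGAA, the gamma-activated sequence, are the same pattern on both strands and stood in 1 of the 2 Irf1 windows, against 8.3% of all windows. These 4 stretches of 30 bases are shown because factors of the interferon response are known to bind such letters. They run 5′ to 3′ along the gene's strand with the match in capitals. A match describes letters and not binding, and the windows of Irf3, Irf7 and Irf9 held neither motif.
Ifih1 (chr2:62646206-62646235, minus strand, motif from base 33 after the start): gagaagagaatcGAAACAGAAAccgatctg
Ddx58 (chr4:40239804-40239833, minus strand): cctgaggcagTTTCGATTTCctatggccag
Stat2 (chr10:128270266-128270295, plus strand): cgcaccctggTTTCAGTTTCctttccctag
Irf1 (chr11:53769914-53769943, plus strand): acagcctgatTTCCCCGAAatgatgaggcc

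The probe of Irf7 and the end of the Zbp1 probe are shown as well, because Zbp1 was called higher in WT mice and Irf7 lower in the average of the genotypes. The 60 bases of the Irf7 probe span 351 bases of build mm9 and so cross an intron. The Zbp1 probe lies on chr2:173039307-173039366, and its last 30 bases are printed. Over at least 45 bases at 75% identity or more it matched 1 other probe on the array, that of Sgsm3, and 3 of 32851 promoter windows, whereas the other 12 probes matched none. The Sgsm3 probe was 0.39 lower in WT mice at 8 Gy and not called (limma, log2 change -0.39, SE 0.328, adjusted p = 0.533), a mean change opposite in direction to that of Zbp1 given below.
Irf7 probe (chr7:148450664-148451014, minus strand): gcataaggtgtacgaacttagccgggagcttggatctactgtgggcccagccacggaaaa
Zbp1 probe, last 30 bases (chr2:173039307-173039336, minus strand): ttgcttctgcctattaaattctgggattaa

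Levels are log2 signal with the 75th percentile of each array at 0, and a level is read only against other levels of the same probe. Between 20.02 and 58.6% of probes were well above background per array, and the irradiated WT arrays (45.8 to 58.6%) were brighter than most of their controls (28.02 to 53.3%). The 2 dimmest arrays were Atm 4 Gy replicate 6 (20.02%) and Scid 0 Gy replicate 5 (25.0%). The mean level of 4 hepatocyte markers was 8.74 to 9.47 in replicate 5 of WT 0 Gy, replicates 1 and 2 of WT 8 Gy and replicate 3 of Atm 4 Gy, against at most 6.12 on the other arrays. WT 0 Gy replicate 3 had a mean B cell marker level of -2.01, within the range of the Scid controls other than replicate 4 (-2.36 to -0.93), and Scid 0 Gy replicate 4 had 1.78, within that of the other WT controls (-0.35 to 3.30). Their T cell marker levels were 0.95 and 2.42, where the other WT controls had 0.97 to 3.02 and the other Scid controls 0.63 to 1.11. The former array also had the highest mean level of 3 heart muscle markers, 6.41, with the next at 4.14. Neither array was moved, and the WT, Scid, baseline and average results they enter are also given without both where the values moved. The arrays lay on 9 slides read on 4 scan days.

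WT mice at 8 Gy against 0 Gy show how the blood of normal animals responded, and in them Ifih1 and Zbp1 rose 24 h after irradiation. Ifih1 rose 2.70-fold and Zbp1 3.11-fold, and in both every irradiated array lay above every control. Irf9 was 2.58-fold higher with no overlap of the groups and did not pass the test, and Dhx58, Stat2 and Ddx58 were 1.89- to 2.39-fold higher and did not pass either. Irf3 and Irf1 were within 1.19-fold of their controls. Irf7 alone had a lower mean, by 2.54-fold, and did not pass. Of the 9 genes 2 were called higher and none lower (limma, adjusted p under 0.05), where 7.2% of all genes tested were called, 1.13% higher and 6.07% lower. An unadjusted p under 0.05 was met by 6 of the 9, among them Dhx58 and, with a lower mean, Irf7, against 20.7% of all genes. The 9 genes had a median log2 change of 1.11, against -0.02 over all genes. Of their means 8 of 9 were higher, where 48.8% of all genes had a higher mean. That median is the value of Dhx58, whose probe was kept only through WT 8 Gy. It and the counts that include Dhx58 are thus not independent of the filter. In blood RNA a change in the number of cells of a type and a change of RNA per cell cannot be told apart.

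**Figure D1:**
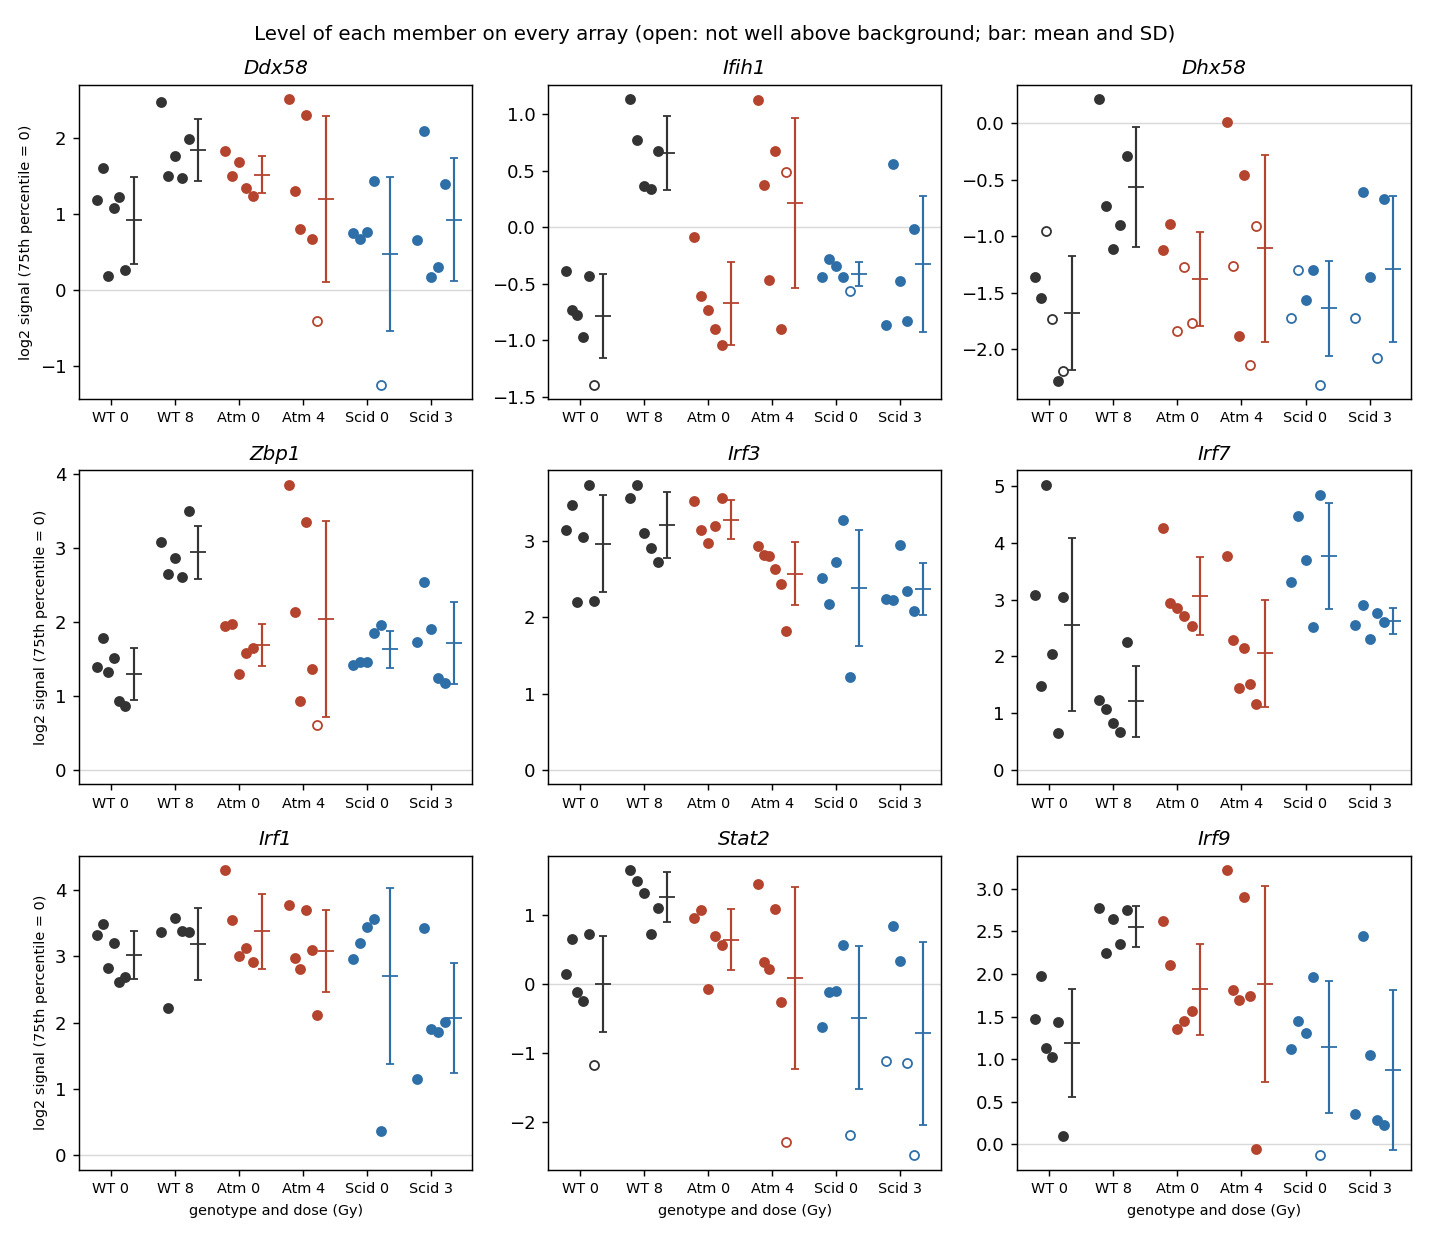
Level of each of the 9 genes (log2 signal, 75th percentile of the array at 0; the vertical scale differs between panels) on every array of the 6 groups, with WT in black, Atm in red and Scid in blue. Each circle is 1 mouse, open where the probe was not well above background, and the bars give the mean and SD of a group. The 5 WT 8 Gy arrays of Ifih1 and Zbp1 lie above all 6 WT controls, while the Atm 4 Gy arrays of Zbp1 run from 0.61 to 3.86.

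Ifih1, whose product MDA5 binds long double-stranded RNA, was read by a probe on chr2:62435507-62435566 (mm9, as for the probes named further on). It had a lowest level of -1.39, a median of -0.76 and a highest of -0.39 on the 6 WT controls, and 1.13, 0.77, 0.36, 0.34 and 0.67 on the 5 irradiated arrays. The lowest irradiated array stood 0.73 above the highest control. Its mean went from -0.78 ± 0.37 (SD, n = 6) to 0.65 ± 0.33 (SD, n = 5), a log2 change of 1.43 (SE 0.316, limma with Benjamini-Hochberg adjustment, adjusted p = 0.00291). Scan day 1 held 1 irradiated and 3 control arrays and gave 1.76, and scan day 2 held 3 and 2 and gave 1.19. The change was smaller with normexp background correction (0.70) and larger with spike-in scaling (2.72), and was called in both.

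Zbp1 had a lowest level of 0.87, a median of 1.36 and a highest of 1.79 on the WT controls, and 3.08, 2.65, 2.87, 2.61 and 3.50 after 8 Gy. The lowest of the irradiated arrays lay above the highest control, and the spread within each group was similar. The mean went from 1.30 ± 0.35 (SD, n = 6) to 2.94 ± 0.37 (SD, n = 5), a log2 change of 1.64 (SE 0.409, limma adjusted p = 0.00894), with 1.57 within scan day 1 and 1.49 within scan day 2. The 2 Zbp1 probes are annotated to different transcripts, and the call rests on the first. The second Zbp1 probe (chr2:173032258-173032317), which matched no other probe, was at 1.64 (SE 0.611, limma adjusted p = 0.104 over 18367 probes) and did not pass. It was well above background on 2 of 6 controls and 5 of 5 irradiated arrays and passed the filter through WT 8 Gy alone, so most of its control levels lie at background and its difference is not independent of the filter. The call on Zbp1 was lost without the 4 arrays bright in hepatocyte markers (1.62, limma adjusted p = 0.0513) and with array brightness in the fit (1.54, limma adjusted p = 0.0521).

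Dhx58, the helicase gene without a signalling domain of its own, was read on chr11:100556271-100556330 and lay near background, with 3 of 6 WT controls well above it. Its controls had a lowest level of -2.28, a median of -1.64 and a highest of -0.95, and the irradiated arrays had 0.21, -0.73, -1.11, -0.90 and -0.29. Only replicate 3 of the irradiated arrays lay inside the range of the controls. The difference was 1.11 (SE 0.364, limma adjusted p = 0.058) and did not pass. Its probe was kept only through the irradiated WT group, and with no filter on dim probes the adjusted p was also 0.058. With normexp background correction the difference was 0.15 (limma adjusted p = 0.581), and without the 4 arrays bright in hepatocyte markers 0.79 (limma adjusted p = 0.383). It passed when any 1 of 5 arrays was left out (WT 0 Gy replicate 3, WT 8 Gy replicate 3, Atm 4 Gy replicates 1 and 5, Scid 0 Gy replicate 5), at 1.11 to 1.26 with limma adjusted p between 0.0414 and 0.0482, and without WT 0 Gy replicate 3 and Scid 0 Gy replicate 4 together (1.26, limma adjusted p = 0.0436).

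Ddx58, whose product RIG-I binds short RNA with a 5′ triphosphate, was read on chr4:40151893-40151952. It had a lowest level of 0.18, a median of 1.13 and a highest of 1.6 on the WT controls, and 2.47, 1.5, 1.76, 1.48 and 1.99 after 8 Gy. Replicates 1, 3 and 5 lay above every control and the other 2 inside their range. The difference of 0.92 (SE 0.455, limma adjusted p = 0.247) did not pass, and was 0.37 with array brightness in the fit (limma adjusted p = 0.78).

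Of the factors that start the interferon response, neither Irf3 nor Irf7 was called in WT mice. Irf3 (probe on chr7:52257700-52257759), whose protein is held ready in resting cells, had levels of 2.20 to 3.73 (median 3.09) on the WT controls and 3.57, 3.74, 3.11, 2.91 and 2.73 after 8 Gy, with the groups overlapping almost fully (0.25, SE 0.328, limma adjusted p = 0.704). Irf7, the amplifier of interferon alpha genes, ranged widely on the WT controls, from 0.66 through a median of 2.55 to 5.03, and was at 1.24, 1.08, 0.82, 0.67 and 2.26 after 8 Gy. Every irradiated array of Irf7 lay between the lowest and the highest control. The difference was -1.35 (SE 0.548, limma adjusted p = 0.144). Both extremes are arrays that stand apart: without WT 0 Gy replicate 5, the lowest control, it was -1.73 and passed (limma adjusted p = 0.0292), and without WT 0 Gy replicate 3, the highest, together with Scid 0 Gy replicate 4 it was -0.85 (limma adjusted p = 0.345).

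Among the factors that act after the interferon receptor, Irf9 was the one whose WT groups did not overlap, and it was not called. Its controls, read on chr14:56228806-56228865, had a lowest level of 0.10, a median of 1.29 and a highest of 1.98, and the irradiated arrays 2.78, 2.25, 2.65, 2.35 and 2.75. All 5 lay above all 6 controls, as did Ifih1 and Zbp1, so 3 of 9 genes had groups that did not overlap with the irradiated group higher, where 1.19% of all genes did. None had the irradiated group wholly lower (3.87% of all genes). The change of Irf9 was 1.37 (SE 0.465, limma adjusted p = 0.07). It passed without WT 0 Gy replicate 2 (1.52, adjusted p = 0.0496), without Atm 4 Gy replicate 6 (adjusted p = 0.0339) or without Scid 3 Gy replicate 2 (adjusted p = 0.0476), the last 2 of which enter only through the shared estimate of spread. With array brightness in the fit the difference was 0.77 (limma adjusted p = 0.466).

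Stat2 (probe on chr10:127729834-127729893), whose product partners IRF9, had levels from -1.17 through a median of 0.02 to 0.73 on the WT controls and of 1.65, 1.49, 1.32, 0.72 and 1.1 after 8 Gy, 4 of which lay above every control (1.26, SE 0.554, limma adjusted p = 0.184). With array brightness in the fit Stat2 was at 0.36 (limma adjusted p = 0.811). Irf1 (probe on chr11:53590746-53590805) had levels from 2.61 through 3.01 to 3.48 on the controls and of 3.36, 2.22, 3.58, 3.38 and 3.37 after 8 Gy, a difference of 0.16 (SE 0.451, limma adjusted p = 0.864). Replicate 2 was the only irradiated array of Irf1 below all controls, and the other 4 lay within or just above their range.

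**Figure D2:**
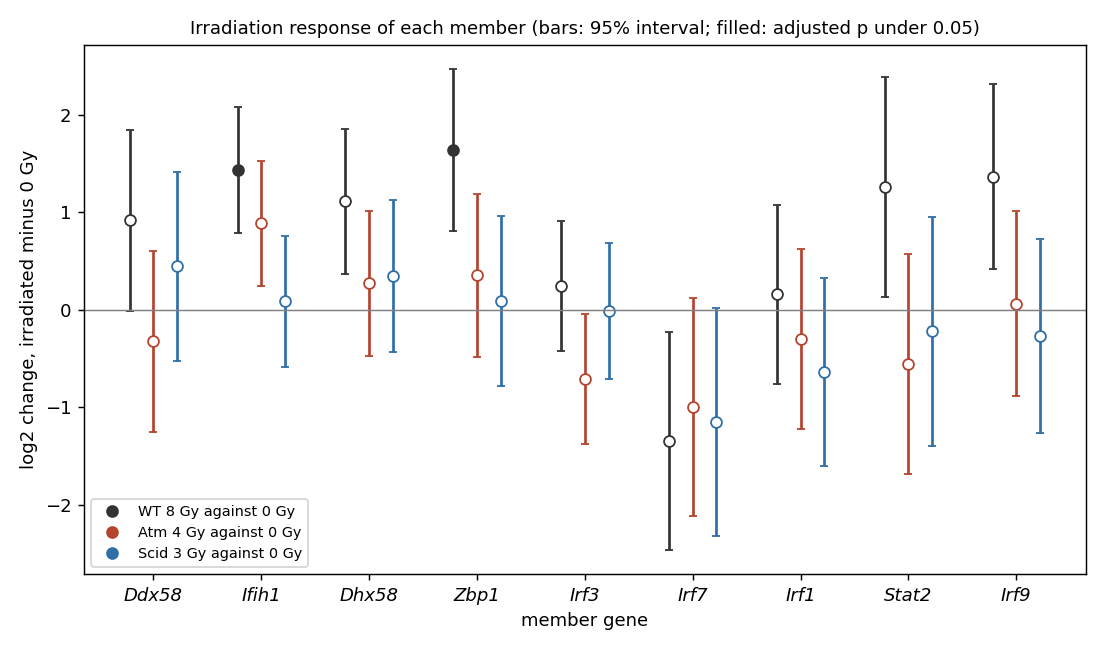
Log2 change of each of the 9 genes, irradiated minus 0 Gy, in WT (8 Gy, black), Atm (4 Gy, red) and Scid (3 Gy, blue). Bars are 95% intervals from limma and filled circles are calls at an adjusted p under 0.05. Ifih1 (1.43) and Zbp1 (1.64) in WT are the 2 filled circles, and Irf7 is the one gene with a mean below 0 in all 3 genotypes.

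In Atm mice, which give the response to 4 Gy in the absence of ATM, none of the 9 genes was called, where 0.237% of all genes were; 2 of the 9 had an unadjusted p under 0.05 (12.1% of all genes). Their median was -0.30, against -0.16 over all genes. Of the 6 irradiated arrays 4 were read on scan day 2, which held no Atm control. Dose and scan day are thus largely confounded in this comparison. With scan day as a block Ddx58 turned from -0.32 to 0.19 and Irf1 from -0.30 to 0.18. Dhx58 moved from 0.27 to 0.865, the other genes kept their direction, and none was called. Spread within the irradiated group marked this comparison. Zbp1 was at 3.86, 2.14, 0.93, 3.36, 1.37 and 0.61 on the 6 irradiated arrays (lowest 0.61, median 1.75), against 1.95, 1.98, 1.30, 1.58 and 1.65 on the controls. Replicates 1 and 4 of the irradiated group were far above every control and replicates 3 and 6 below all of them, so the mean difference was 0.35 (SE 0.409, limma adjusted p = 0.82).

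The same 2 arrays were the highest of the Atm 4 Gy group in 7 of the 9 genes: Ddx58, Ifih1, Dhx58, Zbp1, Irf1, Stat2 and Irf9. On each of them Ddx58, Ifih1, Dhx58, Zbp1, Stat2 and Irf9 lay above every Atm control. Irf9, for example, was at 3.22 and 2.90 there, and at 1.81, 1.69, 1.74 and -0.05 on replicates 2, 3, 5 and 6, with controls at 2.62, 2.11, 1.35, 1.45 and 1.56. Replicate 1 lay on slide 1, read on scan day 1, and replicate 4 on slide 7, read on scan day 2, which also held replicate 5, whose Ddx58, Dhx58, Irf3, Irf7 and Stat2 were below all Atm controls. Replicates 1 and 4 had the highest mean levels of 6 monocyte markers in the group (1.35 and 0.86, others -0.27 to 0.29; Ly6c2, the 7th listed marker, did not pass the filter) and the highest of 6 NK cell markers (2.61 and 2.16, others 0.11 to 1.09). They were also the highest in platelet (8.57 and 8.57, others 6.38 to 7.26), T cell (2.09 and 2.60, others 1.33 to 1.82) and plasmacytoid dendritic cell markers (2.09 and 2.20, others 1.14 to 1.83). Whether these cells had a part in the difference between arrays was not tested. Replicate 6, with 7 of the 9 genes below every Atm control, was the dimmest array of the series, and its Ddx58, Ifih1, Dhx58, Zbp1 and Stat2 probes were not well above background.

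**Figure D3:**
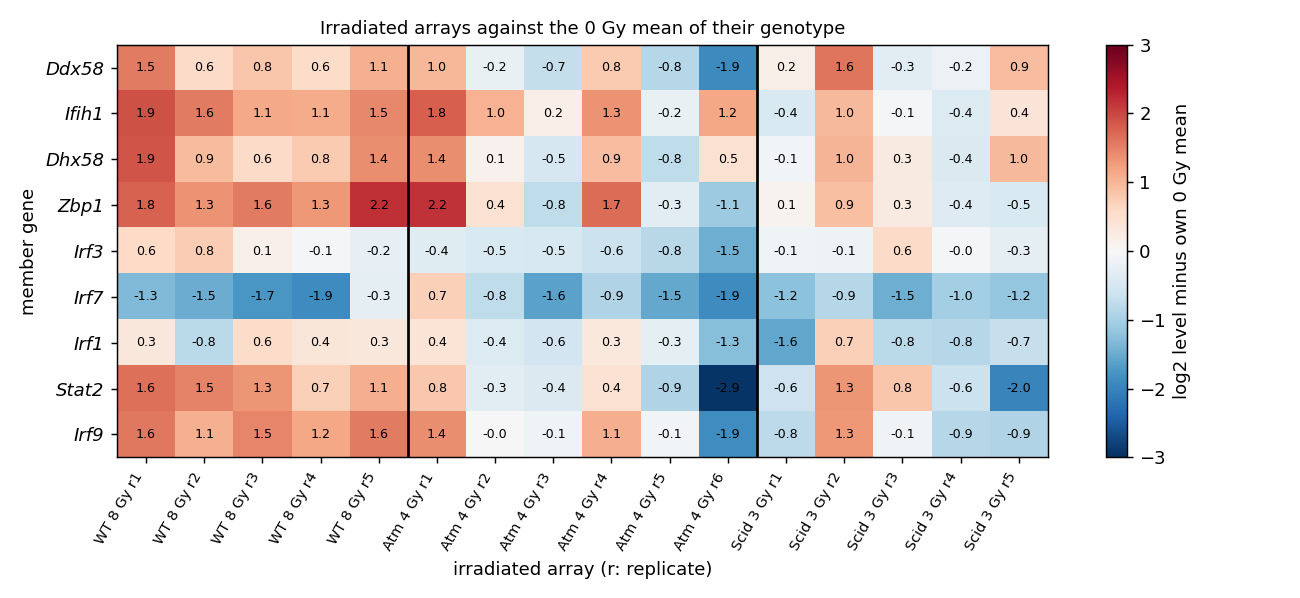
Each irradiated array (columns, r for replicate) against the mean of the 0 Gy arrays of its genotype, for the 9 genes (rows). Colour and number give the difference in log2 level, from blue (lower) to red (higher). The WT columns are red for the 4 sensors, Stat2 and Irf9, among the Atm columns r1 and r4 are, and among the Scid columns r2 is. The Irf7 row is blue in 15 of 16 columns.

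Ifih1 had the largest difference above 0 among the 9 genes in Atm mice, with -0.09, -0.61, -0.73, -0.90 and -1.04 on the controls and 1.12, 0.37, -0.47, 0.67, -0.90 and 0.49 on the irradiated arrays. Replicates 1, 2, 4 and 6 lay above every control and replicates 3 and 5 inside their range. The difference was 0.89 (SE 0.316, unadjusted p = 0.0085 and adjusted p = 0.197 in limma) and did not pass. Its direction turned to -0.57 with spike-in scaling, as did those of Zbp1 (-1.11) and Dhx58 (-1.19), a setting under which the median of all genes was -1.61.

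Irf3 was the one gene whose Atm groups did not overlap. Its controls were at 3.53, 3.14, 2.97, 3.20 and 3.57, and the irradiated arrays at 2.93, 2.82, 2.80, 2.64, 2.44 and 1.82, all below the lowest control. Of all genes 1.7% had irradiated Atm arrays wholly below the controls and 0.435% wholly above them. The difference of -0.71 (SE 0.328, limma adjusted p = 0.376) did not pass. Over the 32 arrays the Irf3 level followed the share of probes well above background (r = 0.77, and 0.82 with group means removed), a measure to which the same arrays contribute. With that share in the fit the difference was -0.42 (limma adjusted p = 0.392), and with scan day as a block it was -0.69 (limma adjusted p = 0.739).

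Irf7 was at 4.26, 2.94, 2.85, 2.72 and 2.53 on the Atm controls and at 3.77, 2.29, 1.45, 2.15, 1.52 and 1.17 after 4 Gy. All irradiated arrays other than replicate 1 lay below every control (-1.0, SE 0.548, limma adjusted p = 0.487).

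The other sensors and late factors in Atm mice repeated that spread. Ddx58 was at 1.83, 1.5, 1.68, 1.34 and 1.24 on the controls and at 2.51, 1.30, 0.81, 2.30, 0.67 and -0.40 after 4 Gy. Stat2 was at 0.95, 1.07, -0.07, 0.69 and 0.57 on the controls and at 1.45, 0.32, 0.22, 1.09, -0.26 and -2.29 after 4 Gy. In both genes replicates 1 and 4 topped every control and replicates 5 and 6 lay under all of them. Dhx58 was at -1.12, -0.89, -1.84, -1.27 and -1.77 on the controls and at 0.01, -1.26, -1.88, -0.46, -2.14 and -0.91 after 4 Gy, with the irradiated arrays on both sides of the controls. Irf1 was at 4.30, 3.54, 3.0, 3.12 and 2.92 on the controls and at 3.78, 2.97, 2.81, 3.70, 3.10 and 2.11 after 4 Gy, mostly overlapping. The mean differences were -0.32 for Ddx58, -0.55 for Stat2, 0.27 for Dhx58, -0.30 for Irf1 and 0.06 for Irf9, none past the test (limma adjusted p from 0.781 to 0.979).

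In Scid mice, which give the response to 3 Gy with impaired end joining, none of the 9 genes was called, where 1.08% of all genes were, and none had an unadjusted p under 0.05. The median of the 9 was -0.01 and that of all genes 0.01. Zbp1 was at 1.42, 1.46, 1.46, 1.85 and 1.96 on the controls and at 1.73, 2.54, 1.91, 1.25 and 1.17 after 3 Gy (0.09, SE 0.427, limma adjusted p = 0.972). Replicate 2 was above every control and replicates 4 and 5 below all of them.

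That array was also the highest of its group in 8 of the 9 genes, all but Irf3, and its Ddx58, Ifih1, Dhx58, Zbp1, Stat2 and Irf9 lay above every Scid control. Irf9 was at 0.36, 2.45, 1.05, 0.28 and 0.23 on the irradiated arrays and at 1.12, 1.45, 1.31, 1.97 and -0.13 on the controls, so replicate 2 alone exceeded the controls. Its monocyte marker level, -0.48, was the joint lowest of the irradiated Scid arrays. Its platelet (9.22, others 8.07 to 8.76), T cell (1.34, others 0.10 to 0.90), B cell (-1.2, others -1.57 to -1.35) and neutrophil marker levels (4.8, others 1.91 to 3.40) were the highest of them, and their part in the values of this array was not tested. Replicate 5 of Scid 0 Gy, a dim array on which the Ddx58, Ifih1, Dhx58, Stat2 and Irf9 probes were not well above background, was the lowest control in Ddx58 (-1.24), Ifih1 (-0.56), Dhx58 (-2.31), Irf3 (1.22), Irf1 (0.36), Stat2 (-2.18) and Irf9 (-0.13) and the highest in Irf7 (4.85) and Zbp1 (1.96).

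Irf7 was at 3.31, 4.48, 3.70, 2.52 and 4.85 on the Scid controls and at 2.55, 2.91, 2.30, 2.76 and 2.61 after 3 Gy. The irradiated arrays lay close together, near the lowest control (-1.15, SE 0.572, limma adjusted p = 0.532). Without WT 0 Gy replicate 3 and Scid 0 Gy replicate 4, which is that lowest control, the difference was -1.46 (limma adjusted p = 0.225). Irf1 was at 2.96, 3.20, 3.44, 3.56 and 0.36 on the controls and at 1.15, 3.43, 1.90, 1.86 and 2.01 after 3 Gy, so that 4 of the 5 irradiated arrays lay below 4 of the 5 controls (-0.64, SE 0.471, limma adjusted p = 0.75).

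Ifih1 was at -0.44, -0.28, -0.34, -0.44 and -0.56 on the Scid controls, the narrowest spread of that gene (SD 0.11), and at -0.86, 0.56, -0.48, -0.83 and -0.02 after 3 Gy. The irradiated arrays lay on both sides of the controls (0.09, SE 0.330, limma adjusted p = 0.966). Ddx58 was at 0.75, 0.67, 0.77, 1.43 and -1.24 on the controls and at 0.66, 2.09, 0.17, 0.30 and 1.40 after 3 Gy. Stat2 was at -0.62, -0.12, -0.10, 0.57 and -2.18 on the controls and at -1.12, 0.84, 0.34, -1.14 and -2.48 after 3 Gy. Neither separated the groups, and the differences were 0.45 for Ddx58, -0.22 for Stat2, 0.35 for Dhx58, -0.27 for Irf9 and -0.01 for Irf3 (limma adjusted p from 0.855 to 0.997).

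Averaged over the 3 genotypes, with equal weight for each, Ifih1 rose and Irf7 fell. Ifih1 rose by 0.80 (SE 0.185, limma adjusted p = 0.00306), a mean over a change of 1.43 in WT, 0.89 in Atm and 0.09 in Scid. Irf7 fell by 1.16 on the log2 scale, 2.24-fold (SE 0.321, limma adjusted p = 0.0142), with -1.35, -1.0 and -1.15 in the 3 genotypes and 15 of 16 irradiated arrays below the mean of their own controls. Only Atm 4 Gy replicate 1 lay above it. Without WT 0 Gy replicate 3 and Scid 0 Gy replicate 4 the average was 0.80 for Ifih1 (limma adjusted p = 0.00686) and -1.1 for Irf7 (limma adjusted p = 0.00739). Of all genes 1.66% were called higher in this average and 9.79% lower. Zbp1 was 0.69 higher and missed the threshold (SE 0.240, limma adjusted p = 0.0567), passing without Atm 4 Gy replicate 3 (0.77), 5 (0.74) or 6 (0.79) or without Scid 0 Gy replicate 5 (0.72), and with quantile normalization (0.76), with the percentile over detected probes (0.99), with the authors' deposited values (0.76) and with the replicate number as a block (0.69, limma adjusted p = 0.041). Dhx58 was 0.58 higher (limma adjusted p = 0.0793) and passed without Atm 4 Gy replicate 5 (0.65), with the percentile over detected probes (0.87, limma adjusted p = 0.00371), and with slide (1.0, limma adjusted p = 0.0083) or scan day (0.94, limma adjusted p = 0.00369) as a block. The WT part of the Dhx58 average is not independent of the filter. The call on Irf7 was lost with slide (-0.98, limma adjusted p = 0.213) or scan day (-0.98, limma adjusted p = 0.115) as a block and with normexp background correction (-0.56, limma adjusted p = 0.607) or spike-in scaling (-1.12, limma adjusted p = 0.0661). The last 2 also ended the call on Ifih1, at 0.30 (limma adjusted p = 0.0962) and 0.85 (limma adjusted p = 0.237).

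Erythroid transcripts moved with Irf7. Of 9 erythroid markers 8 fell in WT, 1 in Atm and 3 in Scid mice, and none rose. Their mean level was 3.72 to 5.63 on the WT controls and 1.03 to 2.29 after 8 Gy, 4.65 to 5.03 and 2.78 to 4.43 in Atm, and 4.14 to 5.80 and 3.02 to 3.94 in Scid mice. Over the 32 arrays the level of Irf7 correlated with it at r = 0.66, and at 0.39 once group means were removed, where both measures come from the same arrays and share their scaling. The 3 genes most like Irf7 over the arrays, among 10455 genes well above background on at least 24 arrays, were the unnamed transcript NAP112175-1 (r = 0.89), Abcb4 (0.88), a phospholipid transporter gene, and Rfxank (0.87), a regulator of MHC class II genes. Abcb4 fell in WT mice (-1.84, SE 0.394, limma adjusted p = 0.00207), as did Rfxank (-1.34, SE 0.422, adjusted p = 0.0482). NAP112175-1 did not pass there (-1.20, limma adjusted p = 0.0747), and Irf7 itself was not called in WT. All 3 were picked for likeness on the same arrays, group differences included, so their falls are not independent of Irf7. Of all genes 6.07% were called lower in WT. Other marker lists moved with Irf7 too: its correlation was 0.72 with the NK cell level (0.77 with group means removed), 0.47 with the platelet level (0.62), -0.24 with the B cell level (-0.58) and -0.62 with the hepatocyte level (-0.54). With group means removed, those with NK cell, platelet, B cell and hepatocyte markers were all larger in size than that with erythroid markers. The part of any of these cells in the Irf7 level was not tested.

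**Figure D4:**
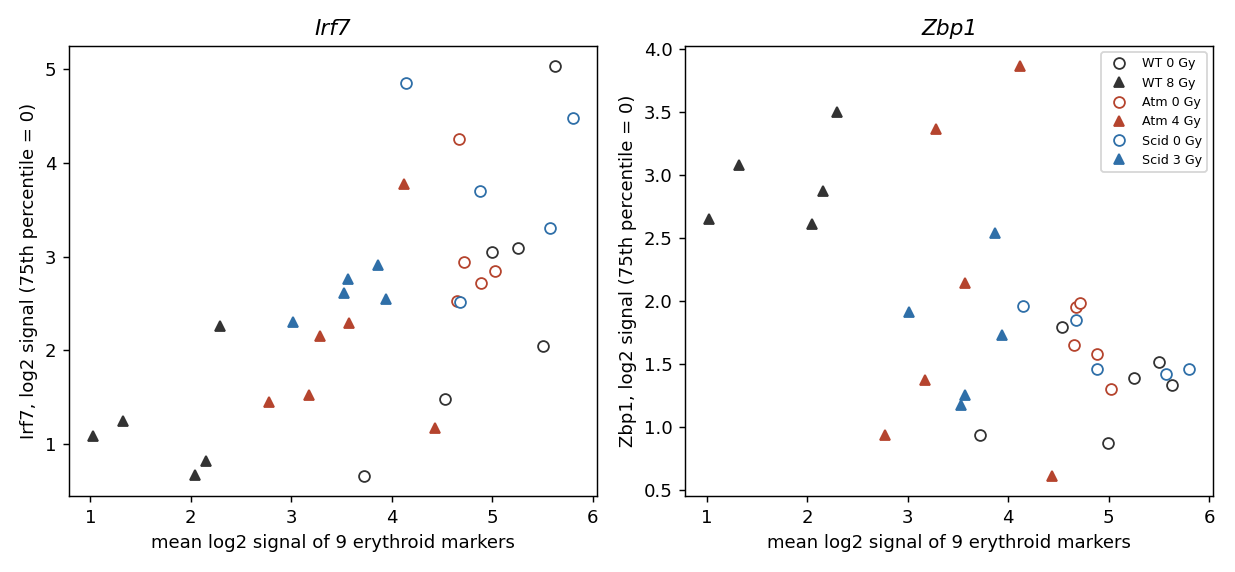
Level of Irf7 (left) and Zbp1 (right) against the mean log2 signal of 9 erythroid markers on the same array. Each point is 1 array, open circles for 0 Gy and triangles for irradiated, in black (WT), red (Atm) and blue (Scid). Irf7 is lower where the erythroid level is lower (r = 0.66 over 32 arrays, 0.39 with group means removed). For Zbp1 r was -0.53 over the same arrays and 0.07 with group means removed. The highest Zbp1 levels, 3.86 and 3.50, lie at erythroid levels of 4.12 and 2.29.

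The sensors and the late factors Stat2 and Irf9 moved together from array to array. These 6 genes also had the largest rises of the mean in WT mice, so their values over the arrays are not independent of that change. With group means removed Irf1 correlated with the 6 at 0.40 to 0.81, inside the range among the 6 themselves (0.36 to 0.91). Among the 15 pairs of Ddx58, Ifih1, Dhx58, Zbp1, Stat2 and Irf9 the correlation over 32 arrays ran from 0.42 to 0.92 with a median of 0.66, and the median was 0.58 after group means were removed. Irf7, itself an interferon target, correlated with these 6 genes at -0.29 to -0.07, and at -0.03 to 0.42 with group means removed. All pairs share arrays and their scaling. Stat2 (r = 0.68), Irf9 (0.56) and Ddx58 (0.55) also followed the share of probes well above background. With group means removed these were 0.61, 0.495 and 0.465. Zbp1 (0.34), Ifih1 (0.26) and Dhx58 (0.22) followed it less, at 0.09, 0.07 and -0.02 with group means removed. The part of array brightness in these pairs was not tested. The genes most like Zbp1 were Rtp4 (r = 0.92), Oas1f (0.91) and Oas1a (0.89), of which the last 2 belong to the oligoadenylate synthetase family, known interferon-induced sensors of double-stranded RNA. Those most like Irf9 were Ifi204 (0.94), Rnf213 (0.94) and Parp14 (0.93). For Stat2 they were Rnf213 (0.95), Parp14 (0.89) and Samd9l (0.89), for Ddx58 Parp14 (0.89), Samd9l (0.89) and Irgm2 (0.87), for Ifih1 Ifit3 (0.79), Rtp4 (0.77) and Oasl1 (0.76), and for Dhx58 Ifit3 (0.77), Oas2 (0.77) and Ifi204 (0.75). With group means removed, the correlations of these 6 genes with their most similar genes were 0.61 to 0.95.

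Most of these similar genes are well known interferon targets, and 6 of them rose in WT mice. Oas2 rose by 4.07 (SE 0.796, limma adjusted p = 0.000737), Ifit3 by 3.46 (SE 0.775, adjusted p = 0.00341), Oas1a by 3.08 (SE 0.651, adjusted p = 0.00185) and Oas1f by 2.62 (SE 0.527, adjusted p = 0.00103). Rtp4 rose by 2.54 (adjusted p = 0.00624) and Ifi204 by 2.03 (adjusted p = 0.0106). Oasl1 (2.12, adjusted p = 0.068), Rnf213 (1.84, adjusted p = 0.092), Irgm2 (1.39, adjusted p = 0.181), Parp14 (1.1, adjusted p = 0.147) and Samd9l (0.83, adjusted p = 0.369) did not pass. They were picked for likeness on the same arrays, and none was called in Atm or Scid mice.

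The genes most like Irf3 and Irf1 were not those named above, but both also moved with some of the other members. With Ddx58, Ifih1, Dhx58, Zbp1, Stat2 and Irf9, Irf1 correlated at 0.27 (Ifih1) to 0.77 (Irf9). With group means removed these values were 0.40 (Ifih1) to 0.81 (Irf9). Irf3 correlated with the same genes at 0.12 (Ifih1) to 0.77 (Stat2), and at 0.10 (Dhx58) to 0.71 (Stat2) with group means removed. The genes most like Irf3 were Bop1 (r = 0.92), a ribosome assembly factor, Cstf1 (0.92), a factor of RNA 3′ end formation, and Zfyve19 (0.91). Those most like Irf1 were Rassf5 (0.93), Tap2 (0.92), a peptide transporter of antigen presentation, and Prex1 (0.91), and their order holds for these 32 arrays as a description.

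The order of the groups differed by gene. WT 8 Gy had the highest mean of the 6 groups in Ddx58, Ifih1, Dhx58, Zbp1, Stat2 and Irf9, Atm 0 Gy in Irf3 and Irf1, and Scid 0 Gy in Irf7, where WT 8 Gy was lowest. The Dhx58 probe was kept through WT 8 Gy alone, so the top rank of that group in Dhx58 is not independent of the filter. In that order the gap between neighbouring groups exceeded the larger of their SDs once, for Stat2, between WT 8 Gy (1.26 ± 0.36, SD, n = 5) and Atm 0 Gy (0.64 ± 0.44, SD, n = 5). In all other cases neighbours differed by less than that spread.

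Without irradiation the genotypes were compared at 0 Gy, and none of the 9 genes was called. The 2 comparisons with WT share the WT controls. In Atm against WT, where 0% of all genes were called, the 9 means were all higher in Atm, by 0.11 (Ifih1) to 0.64 (Stat2), with a median of 0.39 and none with an unadjusted p under 0.05 (limma). Of all genes 48.8% had a higher mean in Atm, and their median was -0.01. The 9 genes share arrays and scaling, so their directions are not independent of each other. In Scid against WT, where 0% of all genes were called, Irf7 was 1.21 higher in Scid (SE 0.548, unadjusted p = 0.0342, limma adjusted p = 0.899) and the other differences lay between -0.58 (Irf3) and 0.37 (Ifih1). In Scid against Atm, where 0.125% of all genes were called, Irf3 was lower in Scid (-0.90, SE 0.343, limma adjusted p = 0.39), as was Ddx58 (-1.04, SE 0.475, limma adjusted p = 0.461). Without WT 0 Gy replicate 3 and Scid 0 Gy replicate 4, Irf7 was 2.02 higher in Scid than in WT (SE 0.502, limma adjusted p = 0.087) and Irf3 1.12 lower in Scid than in Atm (log2 difference -1.12, SE 0.339, limma adjusted p = 0.0874), and none of the 9 genes was called in the 3 comparisons.

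Whether the response differed between genotypes was tested directly, and none of the 9 genes was called in any of the 3 tests, where 0% of all genes were called in each. The 2 tests against WT share the 11 WT arrays. In Scid minus WT, Ifih1 had a difference of -1.35 (95% interval -2.27 to -0.41, unadjusted p = 0.00603, limma adjusted p = 0.679), Zbp1 -1.55 (95% interval -2.75 to -0.34) and Irf9 -1.63 (95% interval -3.0 to -0.26). In Atm minus WT, Stat2 had -1.81 (95% interval -3.40 to -0.21), Zbp1 -1.28 (95% interval -2.46 to -0.11) and Irf3 -0.95 (95% interval -1.90 to -0.01, limma adjusted p from 0.535 to 0.582 for these 3). Of the 9 genes 3 had an unadjusted p under 0.05 in each of these 2 tests, against 7.12% of all genes for Scid and 8.55% for Atm. For Irf7 the differences were 0.35 (95% interval -1.23 to 1.93) in Atm and 0.20 (95% interval -1.42 to 1.81) in Scid, intervals that leave room for a larger or a smaller response than in WT. In Scid minus Atm the smallest unadjusted p was 0.0903, for Ifih1 (-0.80, limma adjusted p = 1). Without WT 0 Gy replicate 3 and Scid 0 Gy replicate 4, Irf7 had -0.15 in Atm minus WT and -0.61 in Scid minus WT, so its direction turned in both, Irf3 had -0.80 in Atm minus WT and Irf9 -1.42 in Scid minus WT. None of the 9 was called there either (smallest limma adjusted p 0.646), and 2 in each of the 2 tests against WT had an unadjusted p under 0.05.

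Of 51 listed further genes of the pathway, 45 were tested. In WT mice 2 were called higher and 1 lower, a share near the 7.2% called of all genes tested (1.13% higher, 6.07% lower), and in Atm and Scid mice none. Both that rose are nucleic acid sensors: Ifi204, a DNA-binding relative of human IFI16 (2.03, SE 0.515, limma adjusted p = 0.0106), and Eif2ak2, the double-stranded RNA kinase PKR (1.6, SE 0.489, adjusted p = 0.0401). Eif2ak2 was dim, with a mean level of -2.66 over the arrays. The lowest level well above background was -3.77 to -0.68 on the WT controls and -4.87 to -2.70 after 8 Gy. Its rise was thus read near background. Tlr9, the endosomal receptor for CpG DNA, fell (-0.87, SE 0.274, adjusted p = 0.0481). The median of the 45 was 0.08 in WT, -0.29 in Atm and -0.14 in Scid mice.

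By role, none of 3 interferon ligands tested was called in any genotype, with Ifna1, the one of highest signal, at -0.90 in WT (limma adjusted p = 0.371), and Ifnb1 and Ifna4 did not pass the filter. None of 7 receptor and kinase genes was called in a single genotype, and in the average of the 3 genotypes Ifnar2, a chain of the type I interferon receptor, fell by 0.86 on the log2 scale (adjusted p = 0.00182). Stat3, a factor that cytokine receptors also activate, was at 0.08 in WT (adjusted p = 0.901) and was not called. None of 5 other interferon regulatory factors was called, and their median was -0.09 in WT.

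Among 9 adaptors and kinases none was called in a single genotype, and in the average Ikbke, an IRF3 kinase, rose (0.62, adjusted p = 0.0223), while Tmem173, which encodes STING, fell (-0.74, adjusted p = 0.0178), as did Trim25, a RIG-I ubiquitin ligase (-0.62, adjusted p = 0.0426). The average also held Eif2ak2, read near background, higher (0.86, adjusted p = 0.0455) and Tlr9 lower (-0.63, adjusted p = 0.00773). So 2 of 45 rose and 4 fell there, where 1.66% of all genes were called higher and 9.79% lower. The count that fell is near the share of all genes and is not read as a result about the pathway. The 3 partners of ZBP1 in cell death, Ripk1 (1.15), Ripk3 (0.16) and Mlkl (0.62), were not called in WT (limma adjusted p from 0.117 to 0.888), and all 3 are named because they are few. None of 10 negative regulators was called, with a median of 0.69 in WT, and the one of highest signal, Trex1, a nuclease that clears cytosolic DNA, was at 1.2 (adjusted p = 0.168).

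Markers of other blood cells moved in WT mice as well. Of 6 monocyte markers tested Cd14 (2.07, adjusted p = 0.0103) and Ms4a6d (2.38, adjusted p = 0.00775) rose (limma). Ccr2 (0.84), Csf1r (0.26), Fcgr1 (0.12) and Cx3cr1 (-1.68) did not pass (limma adjusted p from 0.107 to 0.915). The mean level of the 6 ran from -0.75 to 0.33 on the WT controls and from -0.10 to 1.22 after 8 Gy. Over the 32 arrays the monocyte level correlated with Ifih1 at 0.56, with Zbp1 at 0.54 and with Irf9 at 0.59, and at 0.49, 0.42 and 0.45 with group means removed. Other lists came as close. With group means removed Zbp1 was at 0.61 with NK cell, 0.45 with platelet, and 0.43 with both plasmacytoid dendritic cell and T cell markers. Irf9 was at 0.47 with T cell markers. Ifih1 was at -0.60 with erythroid markers over the arrays, and at 0.13 with group means removed, where its monocyte value was the largest. Of 6 plasmacytoid dendritic cell markers Bst2, also an interferon-induced gene, rose (2.20, adjusted p = 0.0358), while Siglech was at -0.23, and the mean level ran from 1.37 to 2.23 on the controls and 1.08 to 2.45 after 8 Gy. Of 7 B cell markers 2 fell and of 7 T cell markers 1 fell in WT mice. The part of these cells in the changes of Ifih1 and Zbp1 was not tested.

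The WT changes were recomputed under other processing. Ifih1 was called in all 14 alternatives that gave a value (0.70 to 2.72) and in all 32 omissions of 1 array (1.31 to 1.51), and Zbp1 in 12 of 14 (1.45 to 2.92) and 32 of 32 (1.5 to 1.74). Irf9 was called in 4 alternatives, Dhx58 in 6, Stat2 in 2 and Ddx58 in 1. The values of Irf3 (-0.39 to 1.53) and Irf1 (-0.17 to 1.44), none of them called, lay on both sides of 0. Scaling moved the median of all genes in WT from -0.02 to 0.13 with quantile normalization, 0.32 with the array median, 0.41 with a percentile over probes detected on all arrays and 1.26 with spike-in probes. Relative to that median Ifih1 changed by 1.30 to 1.46 and Zbp1 by 1.59 to 1.66, and Irf7 had -1.40 to -1.32. With normexp background correction, where that median was 0.04, they were at 0.66, 1.76 and -0.26.

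**Figure D5:**
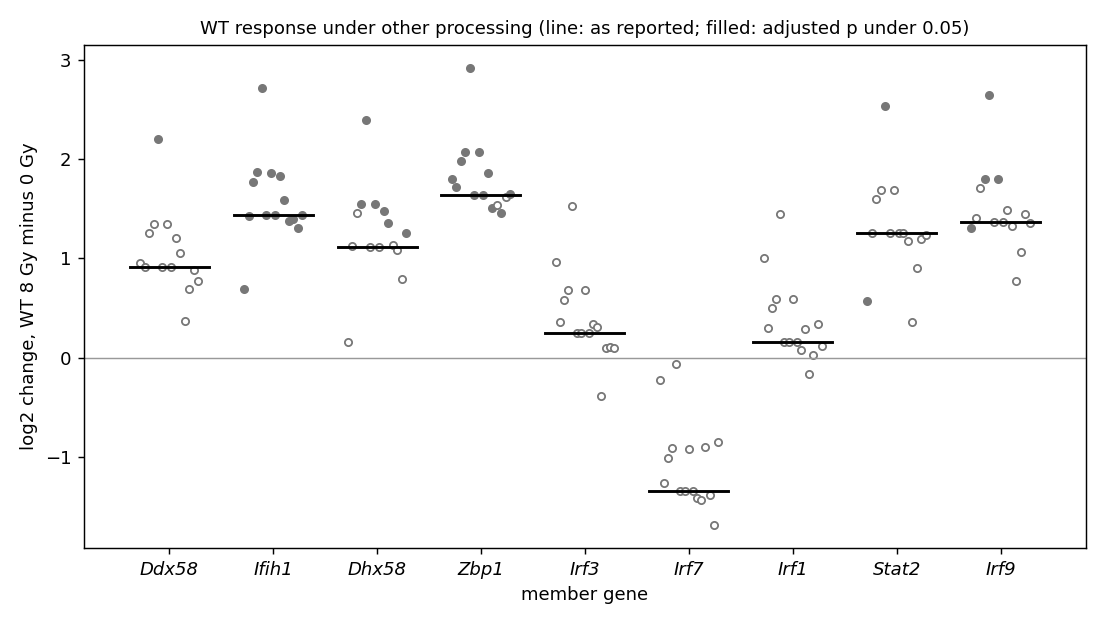
Log2 change of the 9 genes in WT mice, 8 Gy minus 0 Gy, as reported (black line) and under each alternative (circles, filled where the limma adjusted p was under 0.05). All Ifih1 circles and all but 2 Zbp1 circles are filled, between 0.70 and 2.92, and Irf7 stays below 0 in every alternative shown without being called.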

How the data were processed

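Mice were assigned to 6 groups by labelled genotype and dose. Each array has its own scanner table deposited by the authors. The intensity used is the processed signal of each spot, from Agilent Feature Extraction (12.0.2 per the submitters' processing notes, 11.5.1.1 per the file headers, probe positions on build mm9). Per the file headers it is corrected for background and spatial trend and is not normalized between arrays. The authors' deposited value table holds log2 values and served as an alternative. Of its values 98.1 to 99.1% per array were within 0.01 of that signal's log2 shifted by 1 constant per array. Column medians were 5.51 to 6.44, and how that constant was set stays unknown.

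Control spots and outlier spots (125 to 324 per array) were left out, and saturated spots (at most 3) stayed in. The log2 signal was set to each array's 75th percentile. The filter kept 18367 of 39429 probes, those flagged well above background on 4 or more arrays of any group, and the kept probe of highest mean stood for its gene. A limma 3.58.1 model (R 4.3.3) of 6 group means over the 32 arrays shared 1 spread estimate per gene. Its two-sided p-values were adjusted over 15159 genes in each comparison (Benjamini-Hochberg), and a call is an adjusted p under 0.05. The fit was tested on simulated data. The number of arrays limits the precision.

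Alternatives were normexp background correction, quantile, array median, detected-probe percentile and spike-in scaling, no filter, a filter on all arrays, the authors' values, the mean of probes, slide, scan day and replicate blocks, a brightness covariate, and fits without marked arrays or any 1 array. The text names all 9 genes with every probe, the called or highest-signal genes of each pathway role, and the 3 genes most correlated with each of the 9. Some results of the pathway list are not reported here. Members and lists were chosen with earlier results of these data known. Motifs were searched in RefSeq promoter windows, and probe likeness with blastn 2.17.0. Python 3.11.15, numpy 2.4.6, pandas 2.3.3 and matplotlib 3.10.9 read files and drew figures.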

Additional observations from a re-analysis of the deposited data

Results flagged for a closer look

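Each of the 54 combinations of gene and group was examined for an array far from the rest, a rule that chance meets in about 1 of 20 groups, and 4 combinations had one. Scid 0 Gy replicate 5, a dim array, was the lowest of 5 in Ddx58 at -1.24 and in Irf1 at 0.36. Atm 0 Gy replicate 1 was the highest of 5 in Irf7 at 4.26. WT 8 Gy replicate 2, an array bright in hepatocyte markers, was the lowest of 5 in Irf1 at 2.22. The causes were not tested.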

How the results depend on the processing

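The count of members called higher in WT, 2 as reported, was 4 with normexp background correction, with the percentile over detected probes and with the authors' deposited values, 6 with spike-in scaling, 1 with array brightness as a covariate, 1 without the arrays bright in hepatocyte markers, and 0 among the 3 members detected on all arrays. Over the omissions of 1 array it was 2 to 3, and the count lower was 0 to 1. Spike-in scaling called 5 members lower in Atm, 9 lower in the response of Atm minus WT and 2 higher in that of Scid minus Atm, where none was called as reported. Under that scaling the median of all genes was itself at 1.26 in WT, -1.61 in Atm and 0.32 in Scid. Over the alternatives up to 10310 genes were called in Atm. The spike-in counts, that of WT included, therefore go with a shift of all genes and are not read as a result about the members. In the average of the genotypes the count higher, 1 as reported, was 0 with normexp, spike-in scaling or detection on all arrays, 2 with quantile normalization, the authors' values, slide, scan day or the replicate block, and 3 with the percentile over detected probes. Over the omissions it was 1 to 3. The count lower there, 1 as reported, was 0 with normexp, spike-in scaling, slide or scan day. The causes were not tested. No called change turned its sign. Counts that include Dhx58, whose probe was kept through WT 8 Gy alone, are not independent of the filter, in WT or in the average.

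Replicate numbers did not pair the arrays, since deviations of same-numbered arrays correlated at -0.73 to 0.35. The replicate block left 2 members called in WT and changed no call of a single gene other than that of Zbp1 in the average. Leaving out WT 0 Gy replicate 3 and Scid 0 Gy replicate 4 together was chosen after seeing the data. All genes called were 1092 in WT (470 to 4281 over the alternatives, 688 to 1835 over the omissions), 36 in Atm (0 to 10310, 2 to 274) and 163 in Scid (0 to 368, 43 to 403). Dim arrays and 5 or 6 mice per group limit what could be detected.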
